A study of Mus musculus with 87 samples.

Results

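The histone genes measured in regenerating mouse liver were 57 of 78 candidates, in a table of 37991 genes. The candidates were the 71 genes whose symbol begins with Hist1h, Hist2h, Hist3h or Hist4h, most of which lie in histone gene clusters and all of which are called clustered genes here, and 7 genes of variant histones (H2afx, H2afz, H2afv, H2afy, H3f3a, H3f3b and H1f0). A gene was kept when its level passed −1.5 on the log2 RPKM scale in at least 1 of 80 libraries, where RPKM is reads per kilobase of exon, scaled to the size of the library. That threshold kept 50 of the 71 clustered genes (3 of 6 H1, 14 of 20 H2A, 16 of 19 H2B, 6 of 13 H3 and 11 of 13 H4 genes) and all 7 variant genes. The members were thus chosen by their log2 RPKM level, and their levels are given as a description. Each member had to be high in some library, and 22 of the 57 passed in every library whereas 10 passed in 8 libraries or fewer. Just inside the threshold were Hist1h2af, Hist1h3i and Hist2h4, with highest log2 RPKM of −1.195, −1.199 and −1.235, and just outside were Hist1h1b and Hist1h2ac, with −1.51 and −1.52.

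Histones package DNA into nucleosomes, each a core of H2A, H2B, H3 and H4 with a linker histone H1 beside it. Most of the histone protein of a dividing cell comes from replication-dependent genes, which are transcribed in S phase and whose mRNAs classically end in a conserved hairpin without a poly(A) tail. Replacement or variant histones such as H2A.Z and H2A.X come from solitary genes that mostly give polyadenylated mRNA, in dividing and in resting cells. Hepatocytes of the resting liver seldom divide, and after removal of part of the liver they enter the cell cycle in a loosely synchronous wave.

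The livers came from male C57/BL6 mice of 12 to 14 weeks, held in light and dark cycles and fed only in the dark. All 80 libraries were made from poly(A)-selected RNA of single livers. Partial hepatectomy (PH, groups named X) removed part of the liver at ZT2, that is, 2 h into the light period, and sham surgery (S) opened the abdomen without removing liver. Unoperated controls (C) were taken at ZT2 (C0, 9 livers), at ZT6 (C4, 3) and 4 weeks later (C4W, 2). Sham livers were taken at 1 h (S1, 6 livers), 4 h (S4, 5), 10 h (S10, 3), 20 h (S20, 3) and 48 h (S48, 3). PH livers were taken at 1 h (X1, 6 livers), 4 h (X4, 3), 10 h (X10, 6), 20 h (X20, 6), 28 h (X28, 3), 36 h (X36, 6), 44 h (X44, 3), 48 h (X48, 5), 72 h (X72, 3), 1 week (X1W, 3) and 4 weeks (X4W, 2). No unoperated liver matched the ZT12 of the 10 h groups, the ZT22 of the 20 h and 44 h groups or the ZT14 of the 36 h group, so surgery and time of day cannot be told apart for those groups against C0. The livers were collected in 3 periods, and the sources used here give the number of livers of each group per period but not which replicate numbers belong to it. C0 has 3 livers from each period, X1, S1, X10, X20 and X36 have 3 from each of the first 2 periods, and S4 has 3 and 2 from these. X4 also has 3 from each of the first 2 periods, but only 3 of its 6 labelled livers, numbers 4 to 6, are used here. S48, X28, X44, X48, X72 and X1W come from the first period alone, S10, S20, C4W and X4W from the second alone and C4 from the last alone. S48 and X48 therefore share their period, whereas period and surgery cannot be told apart in S4 or X4 against C4, and only a part of the X10 and X20 livers shares the period of S10 and S20. The period of the X4 livers used is not given, so X4 and S4 may differ in period as well as in surgery. In whole liver, a change in the number of cells of a type and a change in RNA per cell cannot be told apart either. The depth of the libraries, estimated from the low values, was 12.2 to 48.8 M reads, with a median of 26.7 M reads (M for mega). At that median the threshold stood for 5 reads on a member of median exon length (530 bases), and 25 of the 57 members had a median under 10 reads per library. Counting error limits the precision for those members.

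The clustered histone genes carried the hairpin, and it is shown here because poly(A) selection would not keep an mRNA that ends there. Of the 50 clustered members, 48 had an annotated coding sequence, and 45 of these held a 16-base hairpin (6-base stem, 4-base loop) between 22 and 59 bases after the stop codon. The core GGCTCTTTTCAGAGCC stood in 28 members (3 H1, 10 H2A, 11 H2B and 4 H3), whereas the H4 members carried the related cores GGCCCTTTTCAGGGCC in 6, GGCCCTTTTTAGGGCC in 2, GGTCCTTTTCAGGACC in 2 and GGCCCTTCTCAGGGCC in 1. Among the 7 variant genes only H2afx held such a hairpin. The sequences below are given on the mm9 assembly, 5′ to 3′, with the stem and loop in capitals and 5 bases on each side.
Hist1h2bc, chr13:23776511-23776536, plus strand: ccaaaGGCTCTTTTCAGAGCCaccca
Hist1h1c, chr13:23831376-23831401, plus strand: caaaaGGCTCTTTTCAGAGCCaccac
Hist2h2aa2, chr3:96043702-96043727, minus strand: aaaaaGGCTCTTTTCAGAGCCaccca
Hist2h3b, chr3:96073053-96073078, plus strand: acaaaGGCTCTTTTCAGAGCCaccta
Hist1h2bl, chr13:21807582-21807607, minus strand: tcaaaGGCTCTTTTAAGAGCCaccca
Hist1h3g, chr13:23627753-23627778, plus strand: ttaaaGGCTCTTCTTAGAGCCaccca
Hist1h4i, chr13:22132830-22132855, minus strand: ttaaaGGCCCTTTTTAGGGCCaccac
H2afx, chr9:44143318-44143343, plus strand: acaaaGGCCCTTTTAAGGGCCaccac
No hairpin was found in the searched window of Hist2h2be, Hist1h2al and Hist1h2an, and Hist1h2aj and Hist2h3c2 have no annotated coding sequence from which to search. The annotated transcript ended before the end of the hairpin in 10 of the 45 genes, ended up to 500 bases past it in 25 and ran more than 500 bases past it in 10. A poly(A) signal (AATAAA or ATTAAA within the last 40 bases of an annotated end) was present in 14 of the 50 clustered members. The median of the mean log2 RPKM was −0.17 over those 14 and −1.76 over the other 36, which is a description over genes that share sequence.

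Near-identical copies limit what a level of a single gene means. The authors counted a read that maps to several places as a fraction at each. Of the 100-base windows of the exons, a median of 43.5% per clustered member was found elsewhere in the genome, and in 22 of the 50 members the share exceeded 50%. Hist2h2aa2 shared 100% of its windows with Hist2h2aa1, a copy that the table lists at its lowest value of −14.29 (log2 RPKM) in every library. Hist2h2aa1 (chr3:96049461-96050038) overlaps the annotated member Hist2h3c1 (chr3:96049477-96052431) on the same strand. The row of Hist2h3c1, classed as H3, thus also holds H2A sequence. The part of this overlap in the lowest value was not tested. Hist1h2bc shared 42.1%, of which most was with Hist1h2bg, and Hist2h3b shared 77.1% with its neighbours. By contrast Hist2h2be shared 0%, H2afx 1.43%, H3f3b 8.94%, H3f3a 18.8% and H2afz 34.0% of their windows. The symbol Hist2h3c1 belongs to 2 gene identifiers in the table, of which ENSMUSG00000070392 is the member and the other is listed at the lowest value.

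**Figure D1:**
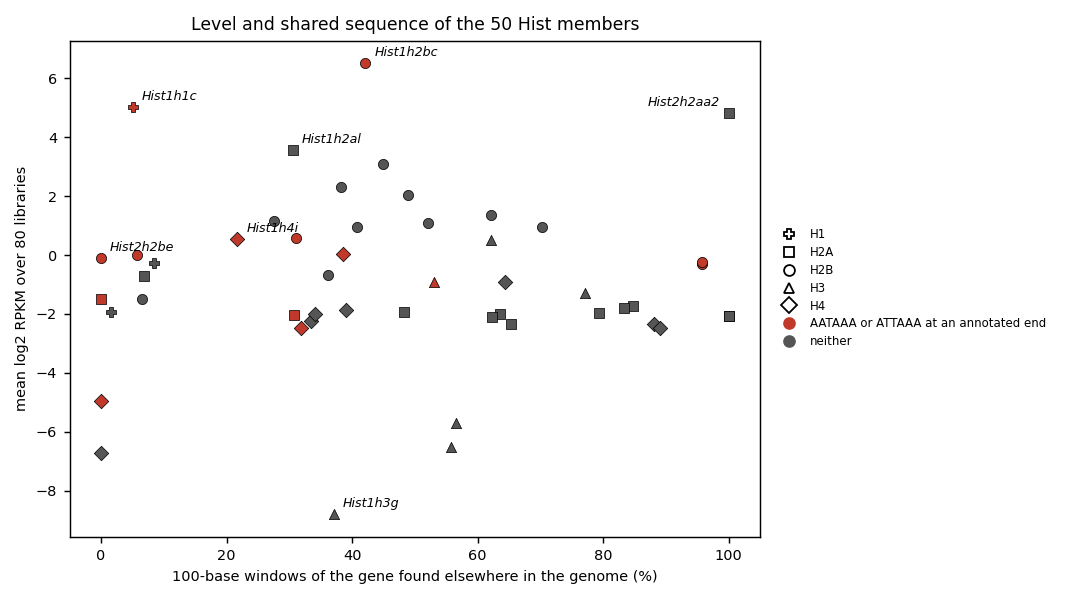
Mean log2 RPKM over 80 libraries (vertical axis) against the percent of 100-base exon windows found elsewhere in the genome (horizontal axis) for the 50 clustered members, with a shape for each histone class and red for a poly(A) signal at an annotated end. Levels reach from −8.79 for Hist1h3g to 6.51 for Hist1h2bc, and Hist2h2aa2 lies at 100%.

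Promoters of 4 members whose levels moved at different times are shown, as the 250 bases before the start of the gene. They are from RefSeq on GRCm38.p6, whose coordinates are not those of mm9, and 50 of the 57 members matched the table (Hist1h2aj, Hist1h2al, Hist1h2ap, Hist1h2bc, Hist2h2be, Hist2h4 and H2afx did not). Capitals mark every match, on either strand, to the motifs searched.
Hist1h1c, chr13:23738557-23738806, plus strand: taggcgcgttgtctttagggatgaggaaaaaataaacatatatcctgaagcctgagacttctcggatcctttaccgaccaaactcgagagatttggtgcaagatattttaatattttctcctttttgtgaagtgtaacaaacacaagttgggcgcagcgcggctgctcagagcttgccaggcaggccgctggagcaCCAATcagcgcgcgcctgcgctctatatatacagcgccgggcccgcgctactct
Hist1h2bg, chr13:23571150-23571399, plus strand: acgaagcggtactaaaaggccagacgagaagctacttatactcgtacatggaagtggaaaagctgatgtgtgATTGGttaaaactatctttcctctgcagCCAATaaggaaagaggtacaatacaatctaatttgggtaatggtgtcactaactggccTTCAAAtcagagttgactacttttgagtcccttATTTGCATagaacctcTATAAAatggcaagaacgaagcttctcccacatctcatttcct
H2afz, chr3:137864237-137864486, plus strand: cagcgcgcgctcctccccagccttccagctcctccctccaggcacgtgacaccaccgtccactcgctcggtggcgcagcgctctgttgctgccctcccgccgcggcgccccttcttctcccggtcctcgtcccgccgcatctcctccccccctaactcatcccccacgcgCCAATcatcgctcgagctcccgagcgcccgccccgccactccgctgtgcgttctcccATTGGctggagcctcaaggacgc
H3f3b, chr11:116024505-116024754, minus strand: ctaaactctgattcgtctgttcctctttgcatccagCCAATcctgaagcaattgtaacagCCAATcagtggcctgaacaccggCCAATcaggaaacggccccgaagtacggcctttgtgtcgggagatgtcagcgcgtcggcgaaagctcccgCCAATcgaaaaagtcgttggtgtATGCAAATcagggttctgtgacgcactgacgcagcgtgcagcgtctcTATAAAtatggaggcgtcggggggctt
CCAAT, or ATTGG on the other strand, was present in 35 of the 44 matched clustered members and 4 of the 6 matched variant genes, against 33.8% of 32851 promoters of the same length. TATAAA was present in 20 of 44 and 1 of 6 (12.4% of all promoters), TTTGAA in 21 and 1 (16%), and ATTTGCAT, the octamer, in 11 and 1 (1.6%). TGACGTCA was present in 4 and 0 (1.55%), TTTCCCGC in 1 and 0 (0.895%) and TTTGGCGC in 0 and 0 (0.417%). Copies of a gene are not independent of each other, and a match is a description only.

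The levels of the clustered genes were very unequal in the resting liver. Their summed RPKM in C0 was 271 ± 20.4 (SD, n = 9), to which the 16 H2B members gave 167 ± 15.8, the 14 H2A members 66.6 ± 11.9, the 3 H1 members 30.3 ± 9.98, the 11 H4 members 4.73 ± 1.27 and the 6 H3 members 2.98 ± 1.13. Hist1h2bc alone gave 46.1% ± 1.72 of that sum, and the 5 highest genes (Hist1h2bc, Hist2h2aa2, Hist1h1c, Hist1h2al and Hist1h2bg) together gave 83.3%. The 7 variant genes summed to 182 ± 9.21 in C0. Of the 57 members, 25 had their highest group mean in S10 and 13 in S20, against 6 in X44. Among the 25 were H2A copies near the level threshold that share sequence, such as Hist1h2ao and Hist1h2ap. The same count was not made over all genes, so these counts are a description only. Thus the poly(A)-selected histone RNA of the resting liver was led by H2B and H2A of a few clustered genes and, among the variants, by H3f3b and by the gene listed as H1f0.

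**Figure D2:**
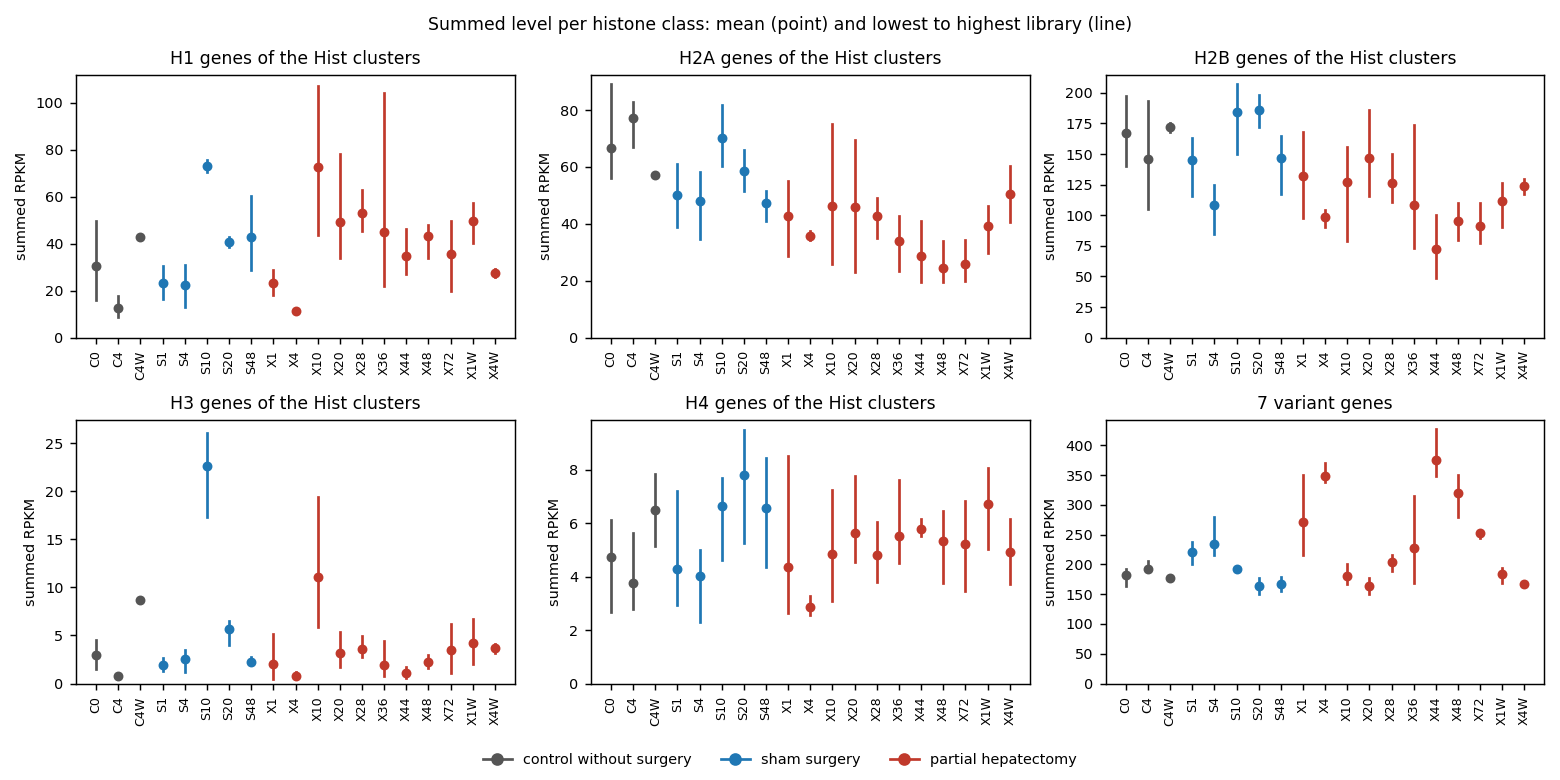
Summed RPKM per histone class (vertical axis, linear from 0) in 19 groups (horizontal axis), with the mean as a point and the lowest to highest library as a line. The variant genes rise to 375 in X44, the H2B genes fall to 72.8 there, and the H3 genes peak at 22.6 in S10.

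To ask how poly(A)-selected histone RNA changed once the liver divides, PH livers at 36, 44, 48 and 72 h were compared with C0. PH livers at 48 h were also compared with sham. Poly(A) selection does not keep mRNA that ends at the hairpin. The levels of the clustered genes and of H2afx, which also holds a hairpin, thus do not measure their whole output. Fold changes are log2 ratios of RPKM + 0.25 from limma, with the SE in parentheses, and a call needed both a log2 change beyond 0.5 and an adjusted p below 0.05. All calls among the variant genes at 44 h were higher, and most calls among the clustered genes were lower. In X44 against C0, 9 members were called higher and 21 lower, where 30.8% of all 15396 genes tested were called higher and 8.42% lower. The 9 comprised 5 of the 7 variants, 2 of 11 H4, 1 of 16 H2B and 1 of 6 H3 genes, whereas the 21 comprised 14 of 16 H2B, 3 of 14 H2A, 3 of 6 H3 and 1 of 11 H4 genes. The median over the members was −0.28, against 0.23 over all genes. When each library was scaled to its median gene, the split was 4 higher and 27 lower.

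H2afx, which encodes the H2A variant that is phosphorylated around DNA breaks, rose the most of the variants. In C0 it lay at 2.82 to 5.30 RPKM with a median of 4.21. In X36 it lay at 14.4 to 28.0 with a median of 20.7, and the 3 X44 livers had 61.7, 40.7 and 52.8. All X36 and X44 livers lay above every C0 liver. The X48 livers had 23.9, 40.9, 33.6, 43.3 and 36.8, against 3.80, 4.43 and 3.88 in S48, and the X72 livers had 13.2, 20.1 and 21.0. The change against C0 was 2.40 (0.17, adjusted p = 2.32e-19) at 36 h, 3.67 (0.22, adjusted p = 3.42e-23) at 44 h, 3.13 (0.18, adjusted p = 1.1e-23) at 48 h and 2.15 (0.22, adjusted p = 9.99e-13) at 72 h. At 1 week the values of 5.55, 6.5 and 4.75 were not called (0.52, adjusted p = 0.0577).

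H2afz encodes H2A.Z, a variant found at promoters and nucleosomes near the transcription start. It lay at 16.5 to 22.9 RPKM in C0 (median 20.6) and at 28.9 to 83.5 in X36 (median 49.3). The X44 livers had 109, 92.0 and 80.6, the X48 livers 66.2, 86.1, 91.7, 114 and 88.1, and the S48 livers 16.2, 23.2 and 16.9. No PH liver of 36 to 48 h overlapped with C0 or S48. The change was 1.27 (0.12) at 36 h, 2.19 (0.15) at 44 h and 2.11 (0.13) at 48 h against C0, and 2.23 (0.17, adjusted p = 2.2e-18) against S48. It still stood at 1.44 (0.15, adjusted p = 3.05e-12) at 72 h, with 51.3, 57.5 and 57.3 RPKM, and at 1 week the livers (22.4, 18.7 and 21.3) lay within or near the C0 range.

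The other variants moved less. H2afv, which encodes the second H2A.Z protein, had 16.5, 16.1 and 14.8 RPKM in X44 against 9.75 to 12.5 in C0 (median 10.9), a change of 0.47 (0.12, adjusted p = 0.000573) that stayed short of 0.5, whereas against S48 (8.01, 8.42 and 7.79) it was called at 48 h with 0.67 (0.13, adjusted p = 2.62e-05). H2afy, which encodes macroH2A, had 11.5, 11.9 and 10.4 RPKM in X44, all above the C0 range of 6.89 to 8.80 (0.51, SE 0.08, adjusted p = 8.79e-08). H1f0, the symbol of the linker histone of non-dividing cells, belongs here to an identifier that the table types as a pseudogene and that has no annotated coding sequence, so that its identity rests on the symbol. It had 112, 84.8 and 96.7 in X44 against 52.6 to 76.2 in C0 (0.52). H3f3b had 91.4, 78.6 and 71.0 in X44 against 44.7 to 51.7 in C0 (0.75). These smaller rises did not hold when each library was scaled to its median gene: H2afy, H1f0 and H3f3b then stood at 0.00, 0.00 and 0.23 in X44 against C0 and H2afv at 0.19 in X48 against S48, none of them called, whereas H2afx and H2afz remained called at 3.15 and 1.68 in X44. H3f3a, the second gene of the replacement H3, had a change of 0.01 at 48 h against C0 and was not called.

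**Figure D3:**
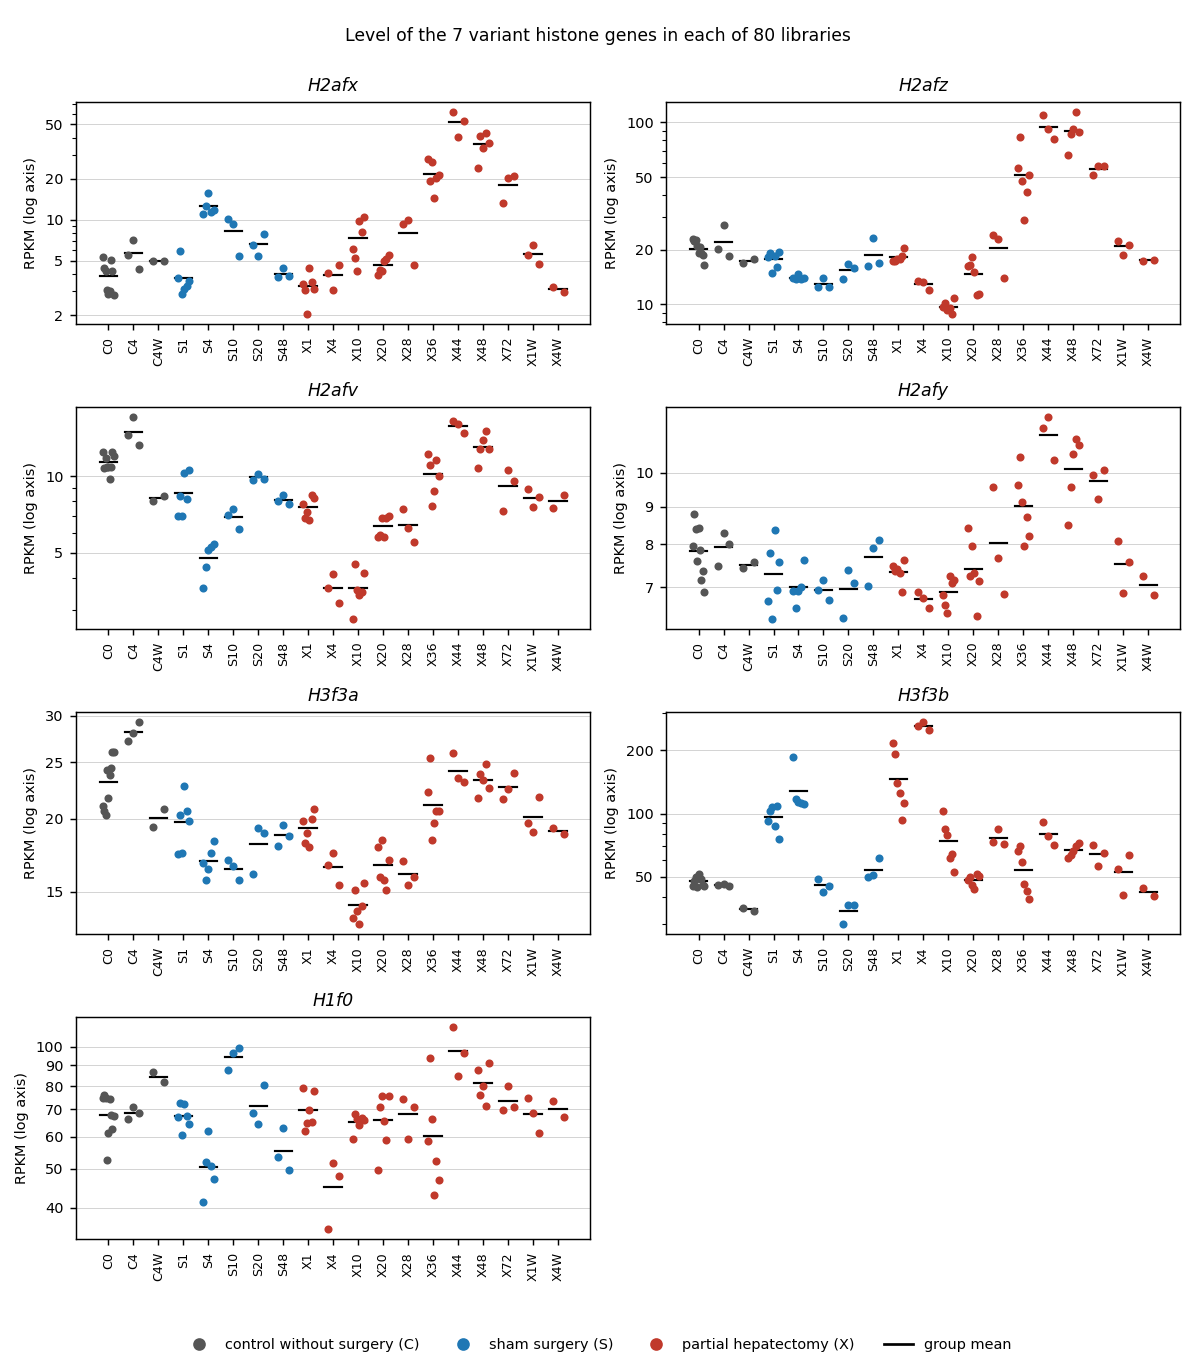
RPKM (log axis) of the 7 variant genes in each of 80 libraries, with a point per liver, a bar for the group mean and a colour for control, sham or PH. H2afx and H2afz rise from 36 h to 48 h after PH and stay low in S48, whereas H3f3b is highest at 4 h after PH, at 249 to 273.

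The H2B genes fell together. Hist1h2bc (chr13:23776068-23784357, plus strand, mm9), the most abundant clustered gene, lay at 112 to 147 RPKM in C0 with a median of 125. The X44 livers had 33.4, 49.1 and 69.8, and the X48 livers 79.8, 56.2, 64.9, 74.6 and 59.9, so that neither group overlapped with C0. The S48 livers had 121, 118 and 82.9, all above the X48 livers. The change was −1.35 (0.18, adjusted p = 2.1e-09) at 44 h and −0.90 (0.15, adjusted p = 4.49e-07) at 48 h against C0, and −0.66 (0.20, adjusted p = 0.00453) at 48 h against sham. Its share of the summed clustered RPKM was 35.2% in X44.

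The lower H2B genes followed. Hist1h2bg, which shares windows with Hist1h2bc, had 2.86, 4.91 and 6.91 RPKM in X44 against 6.55 to 12.4 in C0, so that the highest X44 liver reached the C0 range. In X44 against C0 the change was −1.15 for Hist1h2ba, which is best known from the testis, −1.05 for Hist1h2bl, −1.02 for Hist1h2bn, −0.99 for Hist1h2bh and −0.98 for Hist1h2bf. The median over the 16 H2B members was −0.97. Since these genes share sequence and fractional reads, the 14 calls are not 14 separate observations.

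A single H2B gene went the other way. Hist2h2be (chr3:96025044-96027661, plus strand, mm9), without a hairpin match and without shared windows, lay at 0.746 to 1.67 RPKM in C0 (median 1.11) and at 0.584 to 1.37 in X36. The X44 livers had 3.57, 2.18 and 2.53, the X48 livers 2.02, 2.15, 1.94, 2.75 and 1.89, and the S48 livers 0.765, 0.700 and 0.695. The X44 and X48 livers all lay above every C0, X36 and S48 liver. The change was 1.06 (0.20, adjusted p = 8.21e-06) at 44 h against C0, 1.30 (0.22, adjusted p = 2.42e-06) at 48 h against sham and 1.40 (0.22, adjusted p = 9.89e-07) from 36 h to 44 h. When each library was scaled to its median gene, these changes stood at 0.60, 0.87 and 1.23 and remained called. The scaled changes against C0 at 48 h (0.32, adjusted p = 0.0896) and 72 h (0.19, adjusted p = 0.45) were not called.

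The abundant H2A genes fell with the H2B genes. Hist2h2aa2 lay at 36.3 to 55.7 RPKM in C0 (median 39.4), and had 10.8, 15.7 and 24.2 in X44, 12.4, 21.0, 14.7, 13.5 and 12.9 in X48 and 33.0, 31.5 and 25.2 in S48. No X44 or X48 liver overlapped with C0, and no X48 liver with S48. The change at 48 h was −1.502 (0.20, adjusted p = 1.84e-09) against C0 and −1.01 (0.26, adjusted p = 0.00125) against sham. Hist1h2al (chr13:51298057-51298434, minus strand, mm9) lies apart from the other members on its chromosome, and 29.7% of its windows match Hist2h2aa2. It lay at 15.6 to 27.7 in C0 and at 5.39 to 8.93 in X48, with −1.49 (0.18, adjusted p = 1.12e-10) against C0 and −1.04 (0.24, adjusted p = 0.000252) against sham. Most of the other H2A genes were near the detection threshold, with a median of −1.95 for the mean log2 RPKM of the class.

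The H3, H4 and H1 genes were low or uneven in the dividing liver. The summed H3 level had a mean of 1.08 RPKM in X44 and 2.27 in X48, against 2.98 in C0, with overlapping livers. Hist2h3c1, Hist2h3b and Hist2h3c2, which share sequence, were called lower in X44 against C0. With libraries scaled to the median gene they stood at −1.15, −1.43 and −1.58 and remained called. The following genes were named after their values were seen. Hist1h3g was listed at 0 in 7 of 9 C0 livers and at no more than 0.0268 RPKM in the others, and had 0.117, 0.154 and 0.382 in X44 and 0.191, 0.386, 0.318, 0.383 and 0.0963 in X48. In S48 it was listed at 0 in 2 livers and at 0.00966 in the other. The fitted difference of 1.014 (SE 0.17) to sham is no fold, because the sham level was at the floor. The highest library held 7.83 reads. Hist1h3g passed the level threshold in only 4 of 80 libraries, X44 and X48 livers among them. Its tests thus reuse livers that made it a member, and no p-value is given. Hist1h4k rose by 0.88 at 44 h and 0.93 at 48 h against C0, and Hist1h4i by 0.73 (adjusted p = 0.0278) at 44 h, where its livers had 3.11, 2.22 and 2.60 RPKM against 0.565 to 2.43 in C0. Scaling to the median gene ended the calls at 44 h, with 0.51 (adjusted p = 0.151) for Hist1h4k and 0.27 (adjusted p = 0.456) for Hist1h4i. Hist1h4h fell by 1.17 (adjusted p = 0.00176) at 48 h against sham, where 1 of 3 sham livers, at 0.761, overlapped with the PH livers. Hist1h1c, the most abundant linker histone gene, spread from 21.0 to 97.9 in X36 and was not called at 36 h.

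Around these times the counts were as follows. In X36 against C0, 4 members were called higher (H2afx, H2afz, Hist1h1d and Hist1h4k) and 8 lower, where 25.7% and 9.29% of all genes were called, and scaling to the median gene gave 3 and 26, without Hist1h4k. In X48 against C0, 6 were higher and 14 lower (30.4% and 7.66% of all genes, 4 and 27 when scaled). In X72 against C0, 4 were higher and 15 lower (26.6% and 6.59%, 3 and 26 when scaled). In X48 against S48, which share time of day and surgery apart from the resection, 6 were higher (H2afx, H2afz, H2afv, H1f0, Hist2h2be and Hist1h3g) and 9 lower, where 24.5% and 2.69% of all genes were called, and 4 and 19 when scaled, with H2afv and H1f0 no longer called higher. The median over members in that comparison was −0.22, against 0.27 over all genes. Hist1h3g is counted there although X48 livers were among those that made it a member. With C0 replicates 7 to 9 as the only controls, the split was 8 higher and 6 lower in X48 and 7 and 7 in X72, against 10 and 16 in X44. Thus the lower H2B and H2A levels and the higher H2afx and H2afz levels were found against sham livers as well as against C0. For the clustered genes and H2afx these are levels of poly(A)-selected RNA, without mRNA that ends at the hairpin.

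The steps within the time course and the later livers were compared as well. X28, X36 and X44 were taken at ZT6, ZT14 and ZT22, so hours after PH and time of day cannot be told apart in these steps. X28 and X44 come from the first collection period alone, whereas X36 holds livers of 2 periods. From 28 h to 36 h (X36 against X28), 4 members rose (H2afx, H2afz, H2afv and Hist1h4d) and 2 fell (H3f3b and Hist2h3c1). Of all genes 15.1% and 3.03% were called, and scaling to the median gene gave 3 and 11 members. Hist1h4d was at the floor in X28 and highest in X36 (mean 0.256 RPKM). It passed the threshold in only 6 libraries and held at most 4.99 reads, so its rise is no support. Without X28 replicate 2, whose estimated depth is not settled, 4 of the 6 calls held and 2 were weaker. H2afx rose by 1.45 (0.23, adjusted p = 1.14e-06) over these 8 h, from 9.38, 9.92 and 4.66 in X28. From 36 h to 44 h (X44 against X36), 6 members rose and 8 fell (6.48% and 3.05% of all genes, 4 and 10 when scaled), and 7 of the 8 that fell were H2B genes. H2afx rose by a further 1.26 (0.23, adjusted p = 3.91e-05) and H2afz by 0.93 (0.16, adjusted p = 1.31e-05). At 1 week (X1W against C0), 4 members were higher and 4 lower (12.4% and 4.48%, 0 and 14 when scaled), of which Hist1h2bc stood at −0.65 (0.18, adjusted p = 0.00354) and Hist2h2aa2 at −0.77 (0.24, adjusted p = 0.00985). At 4 weeks (X4W against C4W) limma called 0 members in either direction, with 7 lower and 0 higher at an unadjusted p below 0.05, and 0.0325% of all genes were called in each direction.

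**Figure D4:**
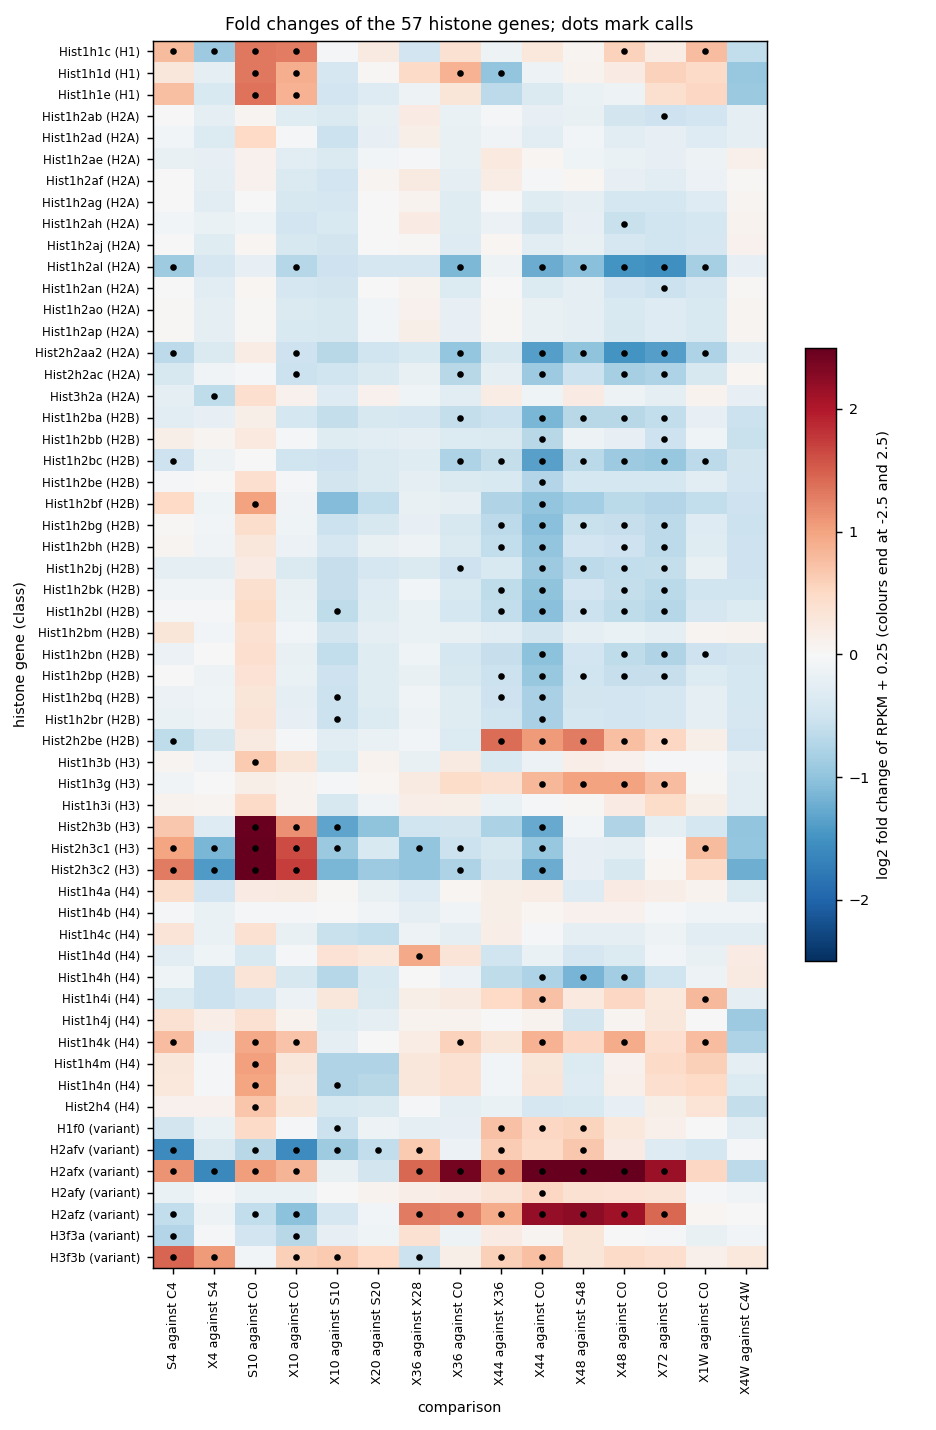
Log2 fold change of RPKM + 0.25 (colour, ending at −2.5 and 2.5) of the 57 histone genes (vertical axis) in 15 comparisons (horizontal axis), with a dot for each call. H2afx and H2afz are red from X36 to X72, the H2B genes are blue in X44 against C0 apart from Hist2h2be, and Hist2h3b, Hist2h3c1 and Hist2h3c2 are red in S10 against C0.

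To ask which histone genes respond to surgery without loss of liver, sham livers were compared with unoperated livers and PH livers with sham livers at 4 and 10 h. H3f3b, a gene of the replacement H3, was the earliest to rise. It lay at 44.7 to 51.7 RPKM in C0, at 75.5 to 109 in S1 (median 97.7) and at 93.0 to 216 in X1 (median 133). The comparisons at 1 h and of X4 with C4 were added after these values were seen. In X1 against C0 the change was 1.56 (0.12, adjusted p = 4.23e-16), and H3f3b was the only one of 57 members called higher, where 4.85% of all genes were higher and 8.65% lower. The 6 members called lower at 1 h (Hist3h2a, Hist2h3c2, Hist2h2be, Hist1h2al, Hist2h2aa2 and H2afv) had changes between −0.77 and −0.57. In X1 against S1 it was 0.56 (0.14, adjusted p = 0.0225), with 1 member higher and 0 lower (0.624% and 0.026% of all genes), although S1 and X1 overlapped and the call was lost on scaling to the median gene (0.51, adjusted p = 0.0732).

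At 4 h H3f3b reached its peak. The C4 livers had 45.6, 46.2 and 45.2 RPKM, the S4 livers 186, 117, 113, 112 and 111, and the X4 livers 260, 273 and 249. These groups did not overlap. The change was 1.45 (0.17, adjusted p = 1.5e-10) in S4 against C4, 2.51 (0.19, adjusted p = 4.11e-17) in X4 against C4 and 1.06 (0.17, adjusted p = 8.41e-06) in X4 against S4. At 10 h the S10 livers (48.7, 42.6 and 45.5) lay within or near the C0 range, whereas the X10 livers lay at 52.6 to 103 (median 71.7), a difference of 0.66 (0.17, adjusted p = 0.00472).

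H2afx and H2afv behaved differently from H3f3b at 4 h. H2afx had 5.49, 7.13 and 4.39 RPKM in C4, between 11 and 15.8 in the 5 S4 livers and 4.11, 3.04 and 4.70 in X4. It was thus higher in S4 than in C4 by 1.13 (0.24, adjusted p = 6.08e-05) and lower in X4 than in S4 by 1.62 (log2 change −1.62, SE 0.24, adjusted p = 1.19e-06). H2afv, by contrast, fell in both groups, from 14.5, 17.1 and 13.3 in C4 to between 3.63 and 5.43 in S4 (−1.60, SE 0.13) and to 3.63, 4.15 and 3.19 in X4 (−1.96). H3f3a fell from 27.2, 28.1 and 29.3 in C4 to between 15.7 and 18.3 in S4 (−0.73, SE 0.08, adjusted p = 3e-11) and to 16.7, 17.5 and 15.4 in X4 (−0.76), values that became −0.49 and −0.48 on scaling to the median gene and so fell short of the call.

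In S4 against C4 the markers of other cells moved as well. All 6 stellate cell genes (median −1.22), all 4 B cell genes (−1.57) and 4 of 5 tested erythroid genes (−2.18) were lower, and 4 of 5 neutrophil genes (1.91) were higher. The summed stellate level was 30.9 to 49.8 RPKM in S4 against 73.5 to 86.4 in C4. The part of these markers in the histone changes at 4 h was not tested.

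Over all members, S4 against C4 gave 6 higher and 7 lower, where 12.2% and 31% of all genes were called. Scaling to the median gene, which moved by −0.22 in this comparison, gave 8 and 2. In X4 against C4, 1 member was higher and 10 lower (11.7% and 33.9%), and in X4 against S4, 1 was higher and 5 lower (3.16% and 5.48%). The 5 that were lower in X4 than in S4 were H2afx, Hist3h2a, the H3 genes Hist2h3c1 and Hist2h3c2, and Hist1h1c (−0.91, SE 0.32, adjusted p = 0.0429), whose call was lost on scaling to the median gene (−0.87, adjusted p = 0.0625). Hist2h3c2 had 0.766, 2.01, 1.93, 1.34 and 1.41 in S4, and 0.637, 0.296 and 0.262 in X4.

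At 10 h after surgery the clustered H1 and H3 genes stood high. The comparisons of S10 and X10 with C0 were added after these values were seen. In S10 against C0, 13 members were higher and 2 lower (H2afv and H2afz), where 17.9% and 11.2% of all genes were called. The 13 comprised all 3 H1 members, 4 of 6 H3, 4 of 11 H4, 1 of 16 H2B members and H2afx. Among these, Hist1h3b, Hist2h4, Hist1h4m and Hist1h4n had median reads of 0.998, 2.99, 2.3 and 2.27 per library. Hist1h3b passed the threshold in only 2 libraries. Hist1h4m and Hist1h4n had 88.1% and 89.1% of their windows elsewhere, and the Hist2h3 genes share sequence. The 13 calls are thus not separate observations. The median over the members was 0.29, against 0.07 over all genes. Markers of other cells moved in S10 against C0 too, with 4 of 6 stellate cell genes, 3 of 4 B cell genes, 3 of 5 endothelial genes and 3 of 5 cholangiocyte genes lower, and their part in the result was not tested. In X10 against C0, 9 were higher and 6 lower (21.2% and 15.2%, 8 and 14 when scaled). The 9 comprised 3 of 3 H1, 3 of 6 H3, 1 of 11 H4 and 2 of 7 variant genes. Both comparisons share the C0 livers.

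Hist1h1c encodes a linker histone made in resting as well as dividing cells. It lay at 15.4 to 48.5 RPKM in C0 (median 28.9), at 71.8, 69.5 and 67.1 in S10 and at 41.3 to 105 in X10 (median 71.0). All S10 livers lay above every C0 liver, and X10 overlapped with C0 by 1 liver. The change against C0 was 1.31 (0.29, adjusted p = 0.000157) in S10 and 1.27 (0.23, adjusted p = 2.65e-06) in X10. At ZT6 the C4 livers had only 11.8, 17.3 and 8.44, and the C4W livers 41.0 and 40.2. Hist1h1d and Hist1h1e, also linker histone genes, were higher in S10 than in C0 by 1.32 and 1.37.

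The H3 genes of the cluster on chromosome 3 moved most at this time. Hist2h3c2 (chr3:96042040-96043050, minus strand, mm9) lay at 0.738 to 2.57 RPKM in C0, at 13.9, 15.1 and 9.84 in S10 and at 3.29 to 11.5 in X10 (median 4.59). Neither the S10 nor the X10 livers overlapped with C0. The change against C0 was 2.89 (0.39, adjusted p = 7.31e-09) in S10 and 1.74 (0.31, adjusted p = 1.39e-06) in X10. Its neighbours Hist2h3b and Hist2h3c1, which share sequence with it, changed by 2.46 and 2.56 in S10 against C0. Hist2h3b had 4.79, 6.33 and 3.17 in S10 against 0.297 to 1.2 in C0. The C4W livers also stood high for Hist2h3c2, at 4.85 and 4.73, against 2.12 and 1.73 in X4W.

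**Figure D5:**
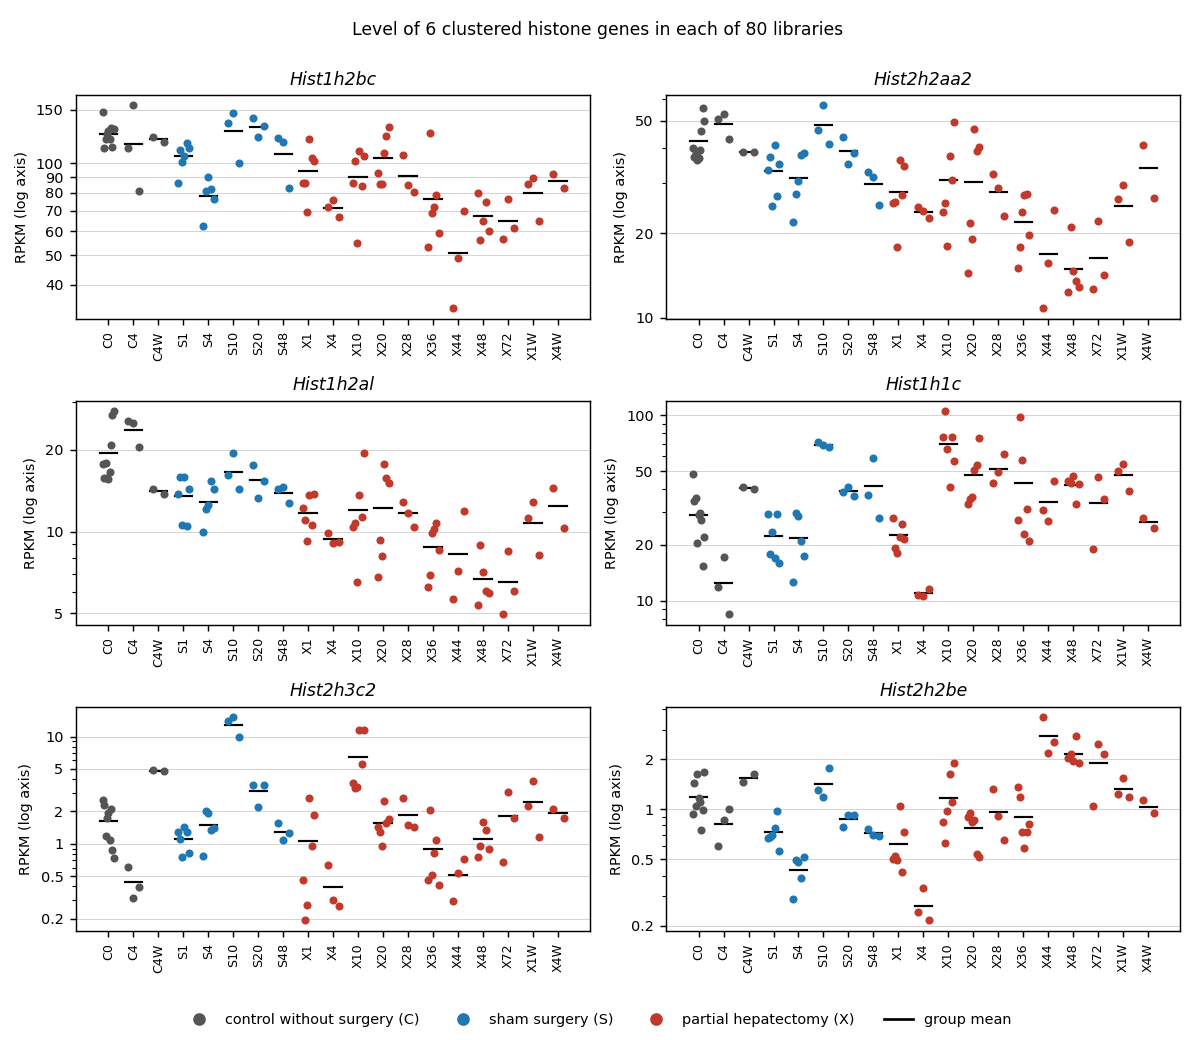
RPKM (log axis) of 6 clustered genes in each of 80 libraries, with a point per liver, a bar for the group mean and a colour for control, sham or PH. Hist1h2bc, Hist2h2aa2 and Hist1h2al fall below their C0 range at 44 and 48 h after PH, Hist1h1c and Hist2h3c2 peak at 10 h, and Hist2h2be rises at 44 h.

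Between PH and sham at the same hour, the early differences were smaller. In X10 against S10, 1 member was higher (H3f3b) and 8 were lower, where 3.4% and 3.62% of all genes were called, and the median was −0.45 over the members against −0.005 over all genes, with 53 of 57 members below 0. The lower ones included H2afv (−0.88, SE 0.13, adjusted p = 1.08e-06), H1f0 (−0.54, SE 0.14, adjusted p = 0.00499), Hist1h2bl (−0.64) and Hist2h3b (−1.32, SE 0.45, adjusted p = 0.0426). In X20 against S20, 0 members were higher and 1 was lower (4.49% and 2.61% of all genes), namely H2afv, with 5.78 to 7.01 RPKM in X20 against 9.70, 10.2 and 9.79 in S20 (−0.62, SE 0.13, adjusted p = 0.000611).

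The PH livers of 10 and 20 h fell into sets by their replicate number. At 20 h the summed RPKM of the H2A genes was 23.2, 33.6 and 29.6 in X20 replicates 1 to 3 and 69.6, 60.0 and 59.7 in replicates 4 to 6, with 66.1, 51.6 and 57.8 in S20. Hist2h2aa2 stood at 14.4, 21.8 and 19.1 in the first set and at 46.8, 39.0 and 40.3 in the other. At 10 h Hist2h3b stood at 1.03, 0.644 and 0.780 against 3.87, 1.99 and 4.66. Each of these groups has 3 livers from each of 2 collection periods, whereas S10 and S20 come from the second period alone. Which replicate numbers belong to which period is not given in the sources used here. With replicates 1 to 3 alone, 30 members were called in X10 against S10 and 9 in X20 against S20, and with replicates 4 to 6 alone X10 against S10 gave 2. The number of calls at 10 and 20 h therefore depended on the set of livers.

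The difference between PH and sham was itself compared between 48 h and 20 h. It was larger at 48 h for 7 members at an adjusted p below 0.05, and smaller for 0. These were H2afx (3.50, SE 0.34), H2afz (2.30, SE 0.23), Hist2h2be (1.46, SE 0.31), H2afv (1.29, SE 0.18), Hist1h3g (0.97, SE 0.24), H1f0 (0.67, SE 0.20) and H3f3a (0.42, SE 0.11). When each library was scaled to its median gene, H1f0 and H3f3a no longer had an adjusted p below 0.05. They then stood at 0.27 (adjusted p = 0.423) and 0.03 (adjusted p = 0.929). Hist1h3g lay near the floor and passed the level threshold in only 4 libraries, X48 livers among them. S48 and X48 share their collection period, whereas only a part of the X20 livers shares that of S20.

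Genes that make, carry or load histones were set beside these changes. Of 10 tested genes of histone mRNA processing, 6 rose in X36, 8 in X44 and 7 in X48 against C0, 7 rose in X48 against S48, and none fell. Of all genes, 25.7% were called higher in X36, 30.8% in X44 and 30.4% in X48 against C0, and 24.5% in X48 against S48. Scaling to the median gene is given for the members only, so changes in the gene lists here and below are unscaled. Slbp, which encodes the protein that binds the histone hairpin, rose by 1.47 at 36 h, 1.26 at 44 h and 0.69 at 48 h against C0. Eri1, a nuclease of histone mRNA decay, rose by 1.44, 1.59 and 1.23, and Npat, a coactivator of the clustered histone genes, by 0.82, 0.93 and 1.07. Zfp473, a part of the U7 snRNP complex that cuts at the hairpin, was not called at 36 h and rose by 1.25 at 44 h and 1.29 at 48 h. Of 22 chaperone genes (23 tested identifiers, since Srcap has 2), 17 rose at 36 h, 18 at 44 h, 17 at 48 h and 15 in X48 against S48, and again none fell. Chaf1a, a subunit of the CAF-1 complex that deposits H3 and H4 at the replication fork, rose by 4.22, 4.01 and 3.35, Asf1b, which hands H3 and H4 to CAF-1, by 3.86, 3.84 and 3.38, and Hat1, which acetylates new H4, by 2.37, 2.46 and 1.70.

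The timing of the variants could be set beside S-phase and M-phase genes. All 16 S-phase genes rose at 36, 44 and 48 h, with medians of 3.74, 2.92 and 2.25 against C0, and all 10 M-phase genes with medians of 3.77, 5.76 and 5.57. The summed level of the S-phase genes lay at 19.8 to 28.5 RPKM in C0, at 136 to 358 in X36 and at 80.3 to 143 in X48, whereas that of the M-phase genes lay at 0.357 to 5.08, 25.5 to 96.3 and 144 to 302. Slbp and Chaf1a had their largest change at 36 h, whereas H2afx, H2afz and Zfp473 had larger changes at 44 or 48 h. The shift in the order was not tested. Among 5 tested histone variants outside the rule, Cenpa, the H3 of centromeres, rose by 1.98, 3.41 and 3.81, H1fx rose by 1.36, 1.55 and 2.05, and H2afj fell by 0.55, 0.72 and 0.89 at 36, 44 and 48 h.

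Markers of other cells were measured beside these results. The 6 hepatocyte genes summed to at least 29800 RPKM in every library, so the labelled tissue held its defining markers. Of 5 tested erythroid genes, 4 rose and 1 fell in X36 and in X44 against C0. The erythroid sums were 41.4 to 135 in X36 and 45.3 to 91.8 in X44, against 38.0 to 142 in C0. In X48 against S48, 0 rose and 1 fell. Of 6 stellate cell genes, 2 rose in X44 against C0 and 3 rose in X48 against S48, with sums of 58.9 to 102 in X48 against 47.0 to 50.9 in S48. Of 5 T cell genes, 3 were tested, and 2 of these fell in X44 and in X48 against C0. No macrophage, neutrophil, B cell or endothelial gene was called in X48 against S48. No gene of these marker lists was at 0 in every library. The part of these markers in the histone changes was not tested.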

How the data were processed

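Poly(A)-selected RNA of single mouse livers was sequenced (100-base single-end reads of a stranded library). The authors trimmed and filtered the reads, mapped them with TopHat 2.0.13 and Bowtie2 to mm9, used SAMtools 0.1.19, and counted them per Ensembl 67 gene on the transcribed strand with featureCounts, where a read with several positions counts as a fraction at each. The authors deposited log2 RPKM per gene and library, with genes at 0 reads at the lowest value. The table has 84 columns of values, of which 80 match a labelled sample and 4 match no sample and were not used. A further 7 labelled samples were not analysed here.

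The 15396 genes above −1.5 in at least 1 library were tested with limma 3.58.1 (R 4.3.3) after a pseudocount of 0.25 RPKM and log2. A single model held the mean of all 19 groups, with a mean-dependent prior variance. P values were adjusted by Benjamini-Hochberg over all genes tested in each comparison. The script was tested on simulated data. Sums, counts and figures were made with Python 3.11.15, pandas 2.3.3, numpy 2.4.6 and matplotlib 3.10.9. RPKM values in the text are the deposited log2 values raised from the log scale. Reads were estimated from the smallest step of the low values, of which a median of 89.2% per library came out whole (41.9% in X28 replicate 2, where the depth is not settled). Positions, hairpins and shared windows were read from the NCBIM37 genome and the GENCODE annotation of the same assembly, and promoters from RefSeq. A hairpin was a 16-base match within 150 bases of the stop codon.

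The labels give groups of livers and no batch, and the collection periods are known per group but not per replicate number, so the period could not be a term of the model. Replicates are separate mice. The members, the gene lists and the tests were chosen with earlier results of these data known. Named with values were the 7 variant genes, the 10 clustered members with the highest mean level, the 10 with the largest called change in X36, X44 or X48 against C0, and those beside the threshold. Hist1h1d, Hist1h1e, Hist1h3b, Hist1h3g, Hist1h4d, Hist1h4h, Hist1h4i, Hist1h4k, Hist1h4m, Hist1h4n, Hist2h3c1 and Hist3h2a were named after their values were seen. The comparisons of X10, S10 and X1 with C0, X1 with S1 and X4 with C4 were added after the data were seen. Alternatives were other pseudocounts, the deposited log2 values, no filter, scaling to the median gene, a replicate block, the 2 groups alone, sets of replicates and leaving out each replicate.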

Additional observations from a re-analysis of the deposited data

Results flagged for a closer look

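For the named members, 160 pairs of a gene and a group of 4 to 10 livers were examined for a liver that stands apart from the others of its group by Dixon's test, and 9 passed its limit, where chance gives about 1 in 20. H3f3b was at 186 RPKM in S4 replicate 1, with the others at 111 to 117. In the same liver Hist1h2bh was at 3.11 (others 4.18 to 4.59) and Hist2h3b at 0.0836 (others 0.433 to 0.572). In X36 replicate 2, Hist1h2bc was at 126 (others 53.1 to 78.6) and Hist1h2ba at 4.15 (others 1.17 to 2.16). In X48, Hist2h2aa2 was at 21.0 in replicate 2 (others 12.4 to 14.7) and Hist2h3b at 0.0979 in replicate 1 (others 0.279 to 0.348). H2afz was at 20.4 in X1 replicate 6 (others 17.3 to 18.4) and H2afx at 5.94 in S1 replicate 2 (others 2.85 to 3.77).

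The difference between PH and sham changed between 20 h and 48 h in 7 members, by the test of the difference itself in limma. The values are the difference at 48 h minus that at 20 h on the log2 scale. H2afx had 3.50 (adjusted p = 1.98e-13), H2afz 2.30 (adjusted p = 1.44e-12) and Hist2h2be 1.46 (adjusted p = 0.000341). H2afv had 1.29 (adjusted p = 7.32e-08), H1f0 0.67 (adjusted p = 0.0116) and H3f3a 0.42 (adjusted p = 0.00598). Hist1h3g had 0.97, without a p-value here because X48 livers were among those that made it a member.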

How the results depend on the processing

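Over 202 calls of members and 4133 values under the alternatives, 3521 kept direction and call, 612 kept the direction without the call and 0 changed sign. Counts of called members that moved by over 1.5 times were as follows. Scaling to the median gene gave 23 in X48 against S48, 29 in X36, 31 in X48, 29 in X72 and 14 in X1W against C0, 14 in X36 against X28 and 2 in X20 against S20. A pseudocount of 0.1 gave 23 in X10 and 13 in X1W against C0. A pseudocount of 1 gave 5 in X36, 11 in X48, 9 in X72 and 5 in X1W against C0, 9 in X44 against X36 and 2 in X4 against S4. Without a filter, the count was 3 in X10 against S10, 3 in X1W against C0 and 9 in X44 against X36, and the deposited log2 values gave 5 in X10 against S10. The 2 groups alone gave 4 in X10 against S10, 4 in X1W against C0, 3 in X4 against S4 and 3 in X44 against X36. With PH replicates 1 to 3 alone the count was 30 in X10 against S10, 9 in X20 against S20, 24 in X10 against C0 and 7 in X44 against X36, and with replicates 4 to 6 alone it was 2 in X10 against S10. C0 replicates 1 to 3 alone gave 1 in X1W, replicates 4 to 6 alone 9 in X10 and replicates 7 to 9 alone 25 in S10. The cause of these moves was not tested. Leaving out each replicate in turn gave 2 (without replicate 2 or 3) to 21 (without 6) in X10 against S10, 1 to 3 in X20 against S20, 10 (without 1 or 2) to 19 in X48 against S48, 8 (without 1) to 16 (without 2) in X36 against C0, 19 (without 1) to 33 (without 3) in X44 against C0, 19 to 24 in X48 against C0, 12 (without 1) to 24 (without 2) in X72 against C0, 12 to 17 in X10 against C0, 14 to 19 in S10 against C0, 4 to 7 in X1W against C0, 4 to 6 in X36 against X28, 6 (without 1) to 20 (without 3) in X44 against X36, 2 (without 3) to 6 in X4 against S4, 9 to 14 in S4 against C4, 0 in X4W against C4W, and 6 to 7 for the change of the difference between 20 and 48 h. Groups of 3 livers, and reads under 10 for 25 members, limit the precision.

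The replicate numbers were used as a replicate block in another alternative. Deviations of same-numbered livers from their group mean correlated between −0.186 and 0.296 over 63 pairs, 15 of them above 0.1. In 0 of 15 comparisons was every pair above 0.1. The check cannot exclude a collection period shared by same-numbered livers, because deviations within a group of a single period hold no difference between periods. Between X36 and C0, numbers 4 to 6 gave 0.217, 0.296 and 0.175, against 0.067, −0.004 and 0.101 for numbers 1 to 3. With the block the count was 27 in X10 against S10, 10 in X20 against S20, 23 in X48 against S48, 3 in X1W against C0 and 9 in X44 against X36, and it changed the count by less in the other comparisons.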
